A study of Mus musculus with 2 samples.

Results

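Immediate early genes and heat shock genes were measured in CD45+ cells of mouse visceral adipose tissue (VAT). The 34 genes were listed by function, 24 early genes and 10 heat shock genes, and their levels were not part of the rule, although earlier results of these data were known when they were listed. They are 34 of the 26981 genes listed in either library, and each had at least 50 unique molecular identifiers (UMIs, distinct mRNA molecules counted) over both libraries. The VAT, epididymal fat in the sample titles, came from wild-type C57BL/6 mice 15 weeks of age. One group drank normal water (NW), and the other drank water with the antibiotics ampicillin, streptomycin, colistin and vancomycin (ABX). The labels give a digestion of 90 min at 37 °C with a tumor dissociation kit for both groups, while the study's methods describe a shorter collagenase digestion of adipose tissue, and which of them these cells had is not settled here. CD45+ cells were taken with magnetic beads and kept on ice, and each group gave 1 library of the BD Rhapsody system, where single cells settle in microwells beside beads that carry barcodes. How many mice stand behind each library is not given in the sources used here. With 1 library per group no test was possible, and the antibiotics, the mice, the handling of the tissue and the library cannot be told apart.

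Immediate early genes are transcribed within minutes of a stimulus from factors that are already present in the cell, so growth factors, cytokines, mechanical strain and enzymatic digestion of a tissue can all raise them. Their products are mostly transcription factors, such as the AP-1 subunits encoded by Fos and Jun, and proteins that shut the response down again, such as the phosphatase encoded by Dusp1. Heat shock genes encode chaperones that hold and refold proteins, are switched on by HSF1 when unfolded proteins accumulate, and are among the genes known to be raised by enzymatic digestion of tissues.

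The NW library held 12474 cells and the ABX library 12724 cells with at least 500 UMIs, at least 200 genes and at most 25% mitochondrial UMIs, of 17662 and 17785 barcodes. The kept cells held 75214427 and 60770758 gene UMIs, with medians of 5092 and 3846 per cell. The libraries shared 371 cell barcode labels. Cells were clustered without the 34 genes and without the lists of other early response genes and other chaperones given below. They were named from markers, always as "-like" cells. The 15 classes with at least 50 cells in each library ranged from macrophage-like cells (5802 in NW and 5026 in ABX) to neutrophil-like cells (60 and 57). ILC2 are group 2 innate lymphoid cells, Treg are regulatory T cells, cDC1 and cDC2 are the main kinds of conventional dendritic cell (DC), and gdT are γδ T cells. The NKT-like name is weak, since 4.76% of those cells had a UMI of Zbtb16, the factor that defines NKT cells, and 60.2% one of Cd3e. Few markers were highest in their own class for some others, 2 of 11 in monocyte-like, 2 of 8 in cDC2-like and 2 of 7 in activated CD4+ T-like cells. Ptprc, which encodes CD45, was at 606 UMIs per 1000000 gene UMIs (CPM) over all NW cells and 665 over all ABX cells, and at 375 and 286 in endothelial-like cells. The red blood cell genes were at 7.67 CPM in NW and 91.6 in ABX in sum. Of 5 such genes, all 4 with at least 50 UMIs were at least 1.5-fold higher in ABX, Alas2, the erythroid heme enzyme, had 4 and 43 UMIs, and class sums ran from 0 (B cell-like) to 218 CPM (endothelial-like) in NW and from 1.74 (cDC2-like) to 817 CPM (B cell-like) in ABX. Their part in the differences between the libraries was not tested.

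The regulators of both groups of genes are known to bind short motifs near the transcript start, so windows that carry these motifs are printed first. RefSeq windows on GRCm38.p6, from 250 bases before to 50 bases after a transcript start, were found for 28 of the 34 genes, 21 early and 7 heat shock genes. There was no window for Egr1, Ier2, Cyr61, Hspa8, Hsp90aa1 and Hsp90ab1. Heat shock factor binds repeats of a 5-base unit in alternating direction, and a pair of units reads GAANNTTC or TTCNNGAA. Some genes had more than 1 window, and a gene was counted where any of its windows held a word. The pair, in either order, was present for 6 of the 7 heat shock genes, all but Dnajb1, and for 2 of the 21 early genes (Jun and Egr2). It was present for 17.0% of the 27025 genes with a window. Other windows of Dnaja1 and Hspd1 lacked it. Both words read the same on the other strand. At least 3 alternating units stood in windows of Hsph1, Hspe1 and Hspd1, in none of the early windows and in 0.662% of genes. Below are the windows of Hspa1a (chr17:34972107-34972406, minus strand), Hsph1 (chr5:149636266-149636565, minus strand) and Hspe1 (chr1:55087898-55088197, plus strand), with the pairs of units in capitals:
Hspa1a: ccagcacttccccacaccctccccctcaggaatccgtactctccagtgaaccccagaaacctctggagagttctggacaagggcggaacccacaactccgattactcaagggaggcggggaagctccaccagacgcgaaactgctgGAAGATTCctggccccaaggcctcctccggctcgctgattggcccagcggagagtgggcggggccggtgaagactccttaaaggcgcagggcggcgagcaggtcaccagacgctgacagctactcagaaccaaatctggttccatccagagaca
Hsph1: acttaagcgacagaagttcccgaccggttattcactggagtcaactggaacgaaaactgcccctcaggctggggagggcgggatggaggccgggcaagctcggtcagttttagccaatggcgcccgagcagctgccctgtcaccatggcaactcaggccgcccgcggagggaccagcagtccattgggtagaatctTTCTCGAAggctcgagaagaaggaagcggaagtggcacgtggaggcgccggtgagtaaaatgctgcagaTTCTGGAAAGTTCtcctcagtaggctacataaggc
Hspe1: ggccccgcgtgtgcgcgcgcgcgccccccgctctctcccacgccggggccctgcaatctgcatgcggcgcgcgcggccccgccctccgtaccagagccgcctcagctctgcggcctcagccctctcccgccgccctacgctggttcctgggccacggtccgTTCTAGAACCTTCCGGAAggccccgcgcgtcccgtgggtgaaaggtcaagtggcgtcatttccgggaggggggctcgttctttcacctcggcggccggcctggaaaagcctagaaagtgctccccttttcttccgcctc
The window of Hspa1b (chr17:34959189-34959488, minus strand) differed from that of Hspa1a at 4 of 300 positions and held its pair at the same place, 104 bases before the start. The window of Hspd1 (chr1:55087883-55088182, minus strand) shared 285 bases with that of Hspe1, read from the other strand, so these neighbouring genes share an upstream region.

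Words of early gene regulators were found in windows of few of the 21 early genes. Sites outside these short windows were not searched, and Egr1, Ier2 and Cyr61 had no window. The cyclic AMP response element TGACGTCA, which is its own reverse complement, stood in the windows of Btg2, Dusp1 and Ppp1r15a, 3 of 21, and in 2.03% of genes. The CArG box, bound by serum response factor, stood in those of Egr2 and Zfp36, 2 of 21, and in 1.81% of genes. Neither word was found in a window of the 7 heat shock genes. The AP-1 word TGACTCA, searched on both strands, was in no window of the 28 genes and in 5.95% of all genes with a window. The CCAAT word was found for 9 of 21 early and 6 of 7 heat shock genes and for 41.1% of genes. The windows of Dusp1 (chr17:26508423-26508722, minus strand) and Zfp36 (chr7:28379179-28379478, minus strand) are printed as examples of the first and the second word, in capitals:
Dusp1: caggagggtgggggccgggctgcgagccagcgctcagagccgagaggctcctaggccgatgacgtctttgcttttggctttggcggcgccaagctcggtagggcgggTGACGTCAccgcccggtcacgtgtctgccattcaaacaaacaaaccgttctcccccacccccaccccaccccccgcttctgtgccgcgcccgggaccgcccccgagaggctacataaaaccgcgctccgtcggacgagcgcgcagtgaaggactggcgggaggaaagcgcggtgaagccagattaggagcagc
Zfp36: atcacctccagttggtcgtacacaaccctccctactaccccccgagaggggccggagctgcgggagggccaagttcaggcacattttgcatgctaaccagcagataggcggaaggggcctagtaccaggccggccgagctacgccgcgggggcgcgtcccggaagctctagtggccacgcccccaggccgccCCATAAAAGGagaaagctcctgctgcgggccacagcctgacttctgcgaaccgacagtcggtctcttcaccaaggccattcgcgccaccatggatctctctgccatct
A match describes letters and not binding.

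Both groups of genes were abundant in both libraries. In NW the 24 early genes summed to 17043 CPM and the 10 heat shock genes to 10184 CPM, and in ABX to 13861 and 9468 CPM. Early transcripts were thus 1.70% of all gene UMIs in NW and 1.39% in ABX. A few genes carried the sums. Jun, Fos, Zfp36 and Jund held 52.1% of the early UMIs in NW and 53.9% in ABX, and Hspa1b, Hspa1a, Hspa8 and Hsp90ab1 held 82.9% and 82.5% of the heat shock UMIs.

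The order of the classes differed in part between early genes and heat shock genes. Neutrophil-like cells had the highest early sum and the lowest heat shock sum in both libraries. Their early sum was 44596 CPM in NW and 30640 CPM in ABX, and their heat shock sum was 4626 and 4058 CPM. ILC2-like cells followed, with early sums of 28335 and 20671 CPM, and they were also near the top for heat shock genes with 11888 and 12017 CPM. Macrophage-like cells came next for early genes with 20753 and 19332 CPM. Below them in NW were Treg-like (18000), endothelial-like (16802) and monocyte-like cells (13570), and at the end B cell-like (10023), NKT-like (9655), gdT-like (8695) and NK-like cells (6915). So the granulocyte, ILC2 and macrophage classes headed the early list, and NK-like cells closed it in both libraries, at 6623 CPM in ABX.

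The range was wider for early genes. The highest class sum over the lowest was 6.45-fold in NW and 4.63-fold in ABX for early genes, and 2.72-fold and 2.96-fold for heat shock genes. For heat shock genes Treg-like cells led in NW with 12571 CPM, followed by ILC2-like, cDC1-like (11039) and macrophage-like cells (10720). In ABX ILC2-like cells led, macrophage-like cells followed with 10588 CPM, and Treg-like cells were at 9529 CPM, next to B cell-like cells at 9585. Plasma cell-like cells were second from last in both, with 6092 and 6022 CPM. Over the 15 classes the early and heat shock sums had a Spearman coefficient of 0.39 in NW and 0.30 in ABX, and Pearson coefficients of log2 sums of -0.09 and -0.10. Classes share their library and differ in depth, so these describe the 2 orders only.

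Most neighbours in the early order differed beyond counting error. The 95% intervals treat each UMI as an independent count and leave out the spread between cells. With cells thinned to 1000 UMIs, the variance of early UMIs over their mean was 12.3 in macrophage-like and 9.63 in neutrophil-like cells of NW. That is far above the value for independent counts, so intervals that included this spread would be wider. In NW the 95% intervals of neighbouring classes overlapped for activated CD4+ T-like and cDC1-like cells only. In ABX they overlapped for activated CD4+ T-like and plasma cell-like, plasma cell-like and monocyte-like, monocyte-like and mature DC-like, gdT-like and NKT-like, and NKT-like and B cell-like cells. For heat shock genes the intervals overlapped in NW for activated CD4+ T-like with B cell-like and mature DC-like with gdT-like cells, and in ABX for B cell-like with Treg-like, Treg-like with activated CD4+ T-like and NKT-like with cDC2-like cells. The spread between mice is unknown. Depth and mitochondrial share also differed between classes, from a median of 1798 UMIs per NW neutrophil-like cell to 13803 per NW plasma cell-like cell, and from 1.00% mitochondrial UMIs in neutrophil-like to 13.1% in monocyte-like cells of NW. Their part in the order was not tested.

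**Figure D1:**
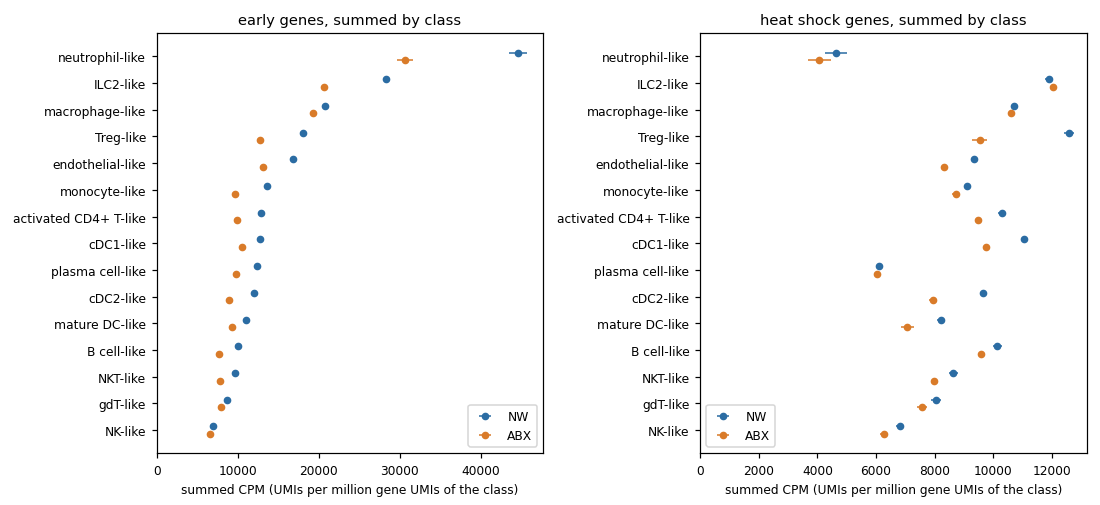
Summed level of the 24 early genes (left) and the 10 heat shock genes (right) in 15 cell classes, in CPM on a linear axis from 0, for the NW library (blue) and the ABX library (orange), with bars for 95% counting intervals. Neutrophil-like cells stand highest on the left (44596 CPM in NW) and lowest on the right (4626 CPM), and the blue point lies to the right of the orange one in all 15 classes on the left.

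The AP-1 genes differed in the class where they were highest. Fos, the partner of Jun in the AP-1 dimer, was at 7994 CPM in neutrophil-like, 2765 in macrophage-like and 287 in mature DC-like cells of NW, and at 6003, 2575 and 137 CPM in ABX. Jun was highest in macrophage-like cells, with 3530 CPM in NW and 3373 in ABX, and lowest in mature DC-like cells, with 588 and 403 CPM. Junb, a weaker activator of the same family, was high in neutrophil-like (3653 and 1801 CPM) and ILC2-like cells (2836 and 2027). Mature DC-like cells were thus low in Fos and Jun in both libraries. Fosb was highest in ILC2-like cells of NW (566 CPM) and in neutrophil-like cells of ABX (591 CPM), and Jund in the same 2 classes, at 3414 CPM in ILC2-like cells of NW and 3449 CPM in neutrophil-like cells of ABX.

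Egr1 and Ier3 had their 3 highest levels in neutrophil-, macrophage- and endothelial-like cells in both libraries. Egr1, a zinc finger factor downstream of ERK signalling, was at 1661 CPM in neutrophil-like, 1274 in macrophage-like and 864 in endothelial-like cells of NW, and at 466, 836 and 496 CPM in ABX. In ILC2-like cells, which had more Fos than most classes, Egr1 was at 247 and 144.6 CPM. The ILC2-like cells thus were high in AP-1 genes and low in Egr1 beside those 3 classes. Their Egr1 level was near that of all T, NK, ILC2 and B cell-like classes together, 258 CPM in NW and 133 in ABX. Ier3, a survival gene of the same kinetics, was at 258 and 256 CPM in macrophage-like cells and at 22.9 CPM in NK-like cells of NW. Atf3, a stress-induced repressor, was highest in neutrophil-like cells (494 and 233 CPM), and monocyte-like (245 and 150) and macrophage-like cells (199 and 167) came next in both libraries. Cyr61, a matricellular gene of endothelial cells and fibroblasts that responds to strain, was at 167 and 246 CPM in endothelial-like, at 69.5 and 81.2 in macrophage-like and at 13.3 and 13.4 in activated CD4+ T-like cells. Ier2, an early nuclear factor, was highest in neutrophil-like (602 and 511 CPM) and ILC2-like cells (475 and 402). Egr2 had 1605 UMIs in NW and 707 in ABX over all cells, and its first class differed between the libraries, monocyte-like in NW with 38.4 CPM and cDC2-like in ABX with 25.5 CPM.

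Dusp1, Zfp36, Nfkbia and Socs3, whose products limit signalling, were each highest in neutrophil-like or ILC2-like cells. Dusp1, which dephosphorylates MAP kinases, was at 5715 and 4730 CPM in neutrophil-like cells and 1469 and 1290 in macrophage-like cells. Zfp36, whose product tristetraprolin speeds the decay of cytokine mRNAs, was at 6750 and 3691 CPM in neutrophil-like and 4109 and 2397 in ILC2-like cells. Nfkbia, the inhibitor of NF-κB, was highest in ILC2-like cells at 1712 and 1019 CPM. Socs3, a feedback inhibitor of cytokine receptors, was at 463 and 233 CPM in neutrophil-like cells and at most 58.0 CPM in any other class of NW. The other genes with their highest level in neutrophil-like cells of both libraries were Btg2, an antiproliferative gene (2371 and 1424 CPM), Klf6 (2479 and 1577) and Mcl1, a BCL2 family survival gene (2703 and 2150). Mcl1 was next highest in B cell-like cells, at 867 and 829 CPM. Ppp1r15a, which restarts translation after stress, was at 548 and 278 CPM in neutrophil-like and 480 and 427 in Treg-like cells.

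Another set of early genes was highest outside neutrophil-like cells. Nr4a1, the orphan nuclear receptor that reports antigen receptor signalling, was at 1922 CPM in ILC2-like and 898 in Treg-like cells of NW, and at 855 and 405 CPM in ABX. Nr4a3, its relative, was at 848 and 915 CPM in mature DC-like cells, while every other class of NW was at 59.8 CPM or below. Nr4a2 was highest in cDC1-like cells, at 64.1 and 27.1 CPM. Mature DC-like cells were thus high in Nr4a3 and low in Nr4a1 (111 and 66.5 CPM). They also had the highest level of Gadd45b, a stress sensor and NF-κB target (453 and 476 CPM), and of Zfp36l1, a relative of tristetraprolin (2125 and 1833 CPM).

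Counted over genes, neutrophil-like cells held the highest level of 13 of the 24 early genes in NW and 11 in ABX, ILC2-like cells of 4 and 3, and mature DC-like cells of 3 and 3. Mature DC-like cells also held the lowest level of 8 early genes in NW and 10 in ABX. The same class was highest in both libraries for 17 of the 24. The neutrophil-like class rests on 60 and 57 cells. Among the 10 heat shock genes neutrophil-like cells were lowest for 7 in NW and 6 in ABX, and the same class was highest in both libraries for 5.

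**Figure D2:**
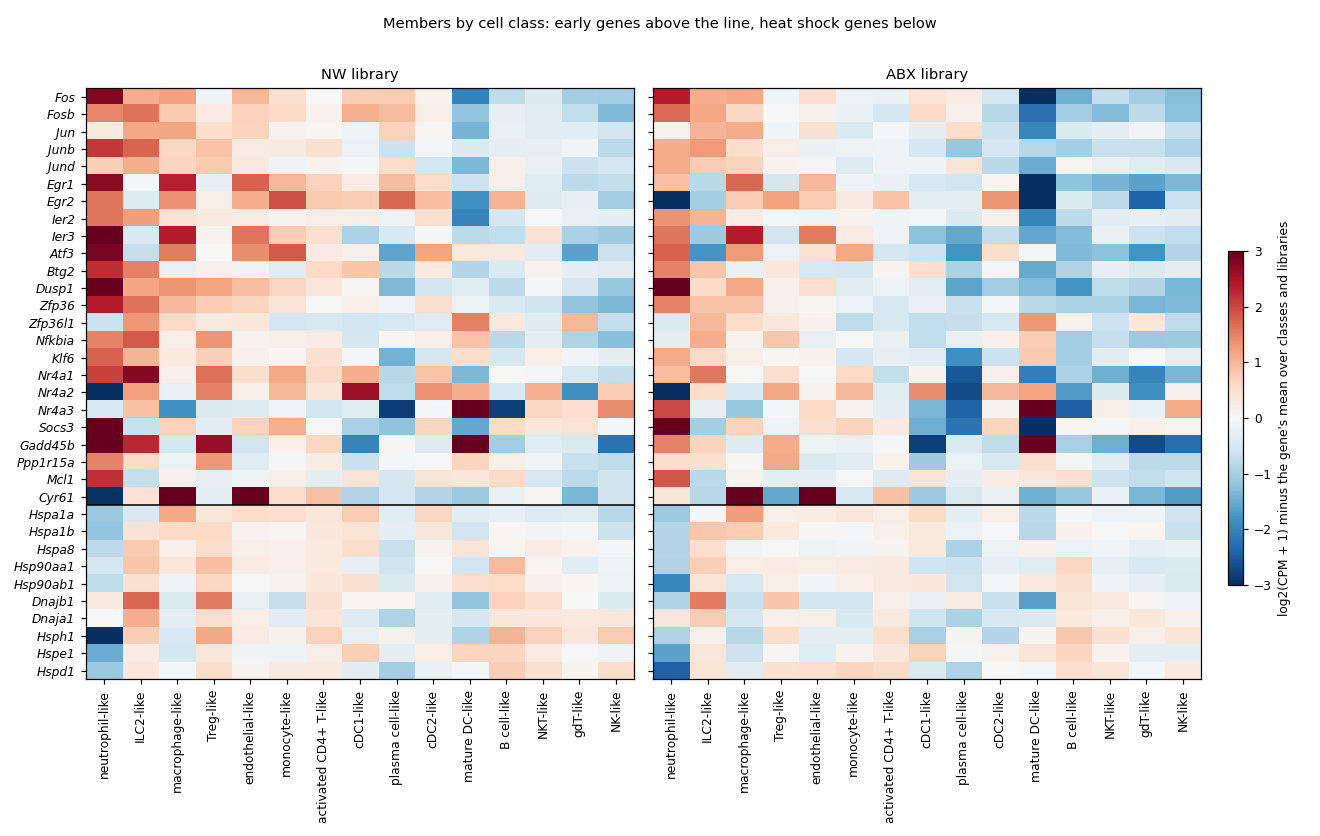
Level of each of the 34 genes (rows, early genes above the line and heat shock genes below it) in 15 cell classes (columns) of the NW library (left) and the ABX library (right), as log2(CPM + 1) minus the gene's mean over classes and libraries; colours are cut at -3 and 3. The red of the first column (neutrophil-like) in most early rows turns to blue in most heat shock rows. Exceptions there include Nr4a2, which is blue, and Dnaja1 in ABX, which is not. Nr4a3 and Gadd45b are red in mature DC-like cells.

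Heat shock genes divided into an inducible pair and the rest. Hspa1a and Hspa1b encode the inducible HSP70 and are nearly the same in sequence. Of the 50-base stretches of the Hspa1a transcript, 58.8% also occur in Hspa1b, but none of those in its last 500 bases. Where in the transcripts the reads lay is not known here, so how they were split between the genes is uncertain. Hspa1a was highest in macrophage-like cells, at 2858 and 3075 CPM, and lower in ILC2-like (948 and 1244), NK-like (727 and 858) and neutrophil-like cells (595 and 609). Hspa1b was at 2972 and 2403 CPM in Treg-like, 2630 and 3434 in ILC2-like, 2894 and 3300 in macrophage-like and 857 and 1066 in neutrophil-like cells. Macrophage-like cells were near the top for both, and ILC2-like and Treg-like cells for Hspa1b.

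The co-chaperones and the HSP90 genes were highest in lymphoid classes. Dnajb1, the HSP40 that works with inducible HSP70, was at 616 and 555 CPM in ILC2-like, 552 and 331 in Treg-like and 139 and 116 in macrophage-like cells. Dnaja1, another HSP40, was at 782 and 624 CPM in ILC2-like and 298 and 256 in macrophage-like cells. Hsph1, the HSP110 that exchanges nucleotide on HSP70, was at 156 and 101 CPM in Treg-like, 141 and 122 in B cell-like and 49.9 and 38.2 in macrophage-like cells. All 3 co-chaperone genes were thus lower in macrophage-like cells than in these lymphoid classes in both libraries. Hsp90aa1, the stress-inducible HSP90, was highest in B cell-like cells of NW (1367 CPM) and ILC2-like cells of ABX (1165), and Hsp90ab1, the constitutive one, in Treg-like cells of NW (2703) and B cell-like cells of ABX (2425). Hspa8, the constitutive HSC70, was highest in ILC2-like cells at 2733 and 2254 CPM. Hspe1, the HSP10 of mitochondria, was highest in cDC1-like cells (361 and 352 CPM), and Hspd1, the HSP60 that it caps and whose window is shown above with it, in B cell-like cells of NW (170 CPM) and monocyte-like cells of ABX (158 CPM).

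Macrophage-like cells were set against all T, NK, ILC2 and B cell-like classes together, 3253 cells in NW and 4564 in ABX, to see which list separates them. The early sum was higher in macrophage-like cells by 0.42 on the log2 scale in NW and 0.77 in ABX, and the heat shock sum by 0.07 and 0.16. ILC2-like cells held 92744 of the 216423 early UMIs of this lymphoid group in NW and 92623 of 203829 in ABX. The make-up of the lymphoid group differed, with 423 Treg-like, 348 B cell-like and 756 ILC2-like cells in NW and 176, 938 and 1245 in ABX. Its part in the change of these ratios between libraries was not tested. Of the 24 early genes, 15 were higher in macrophage-like cells in both libraries, 6 were lower in both, and 3 differed in direction between the libraries. In both libraries the counting interval excluded equal levels for 14 of the 15 and for 3 of the 6. Cyr61 (3.18 in NW and 4.16 in ABX), Ier3 (2.47 and 3.08) and Egr1 (2.31 and 2.66) had the largest log2 ratios of the early genes in both. Nr4a3 was lower in macrophage-like cells by log2 ratios of -2.30 and -0.92, and Nr4a1 of -1.26 and -0.18. Among the 10 heat shock genes Hspa1a (1.26 and 1.31) and Hspa1b (0.35 and 0.49) were higher and the other 8 lower in both libraries, with Dnajb1 at -1.41 and -1.40 and Hsph1 at -1.28 and -1.35. The near-equal heat shock sums thus held a higher HSP70 pair and lower co-chaperones and HSP90 genes. With the median over genes in place of the sum the heat shock ratio was -0.50 in NW and -0.72 in ABX, and without the most abundant gene of the list it was -0.03 in NW.

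**Figure D3:**
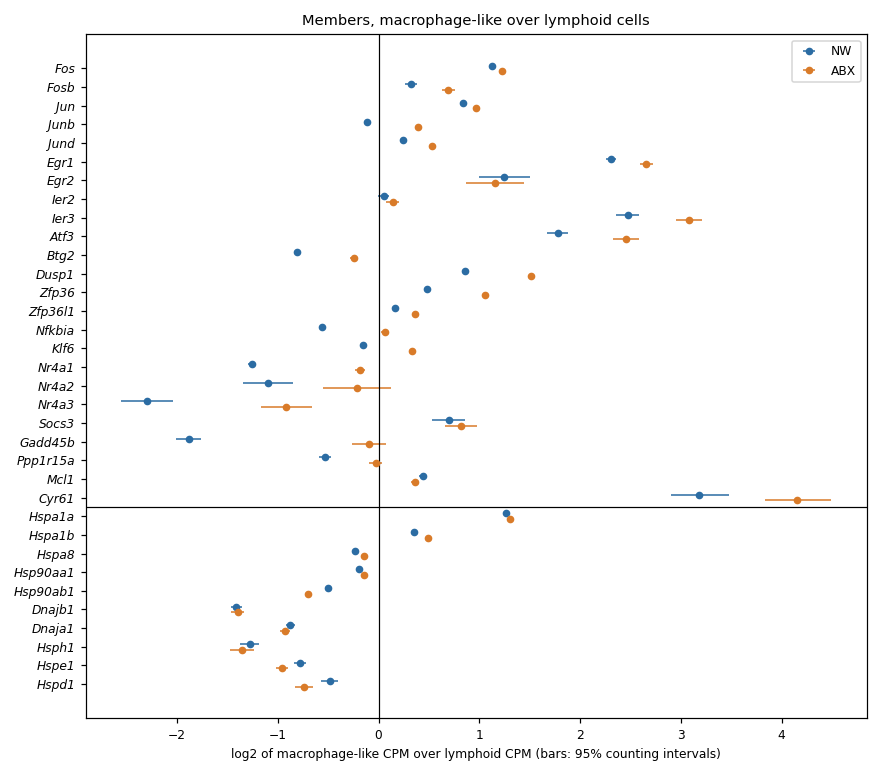
Log2 ratio of CPM in macrophage-like cells to CPM in lymphoid cells for each gene, in NW (blue) and ABX (orange), with 95% counting intervals; early genes are above the line. Egr1, Ier3 and Cyr61 lie at 2.31 or more, and of the heat shock genes Hspa1a and Hspa1b alone lie right of 0.

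Early genes were not even among macrophage-like cells. A cluster of 627 NW and 817 ABX cells, led by Ccl12, Cx3cr1, Il1b, Cxcl2, Ccl2, Ccl7 and Tnf besides Cyr61, had early sums of 37731 and 34725 CPM, against 18874 and 16246 CPM in the other macrophage-like cells, ratios of 1.999-fold and 2.14-fold. Its heat shock sums were 10597 and 10908 CPM, against 10734 and 10523 CPM. The cluster was thus set apart in early and not in heat shock genes. In it Egr1 was at 3064 CPM in NW and 2375 in ABX, against 1100 and 600 CPM in the largest NW macrophage-like cluster, and Fosb at 981 and 849 against 239 and 185. Dnajb1 was the heat shock gene that differed most from that cluster, at 247 and 189 against 131 and 106 CPM. The 34 genes were left out of the clustering, but the inflammatory genes that led the cluster were used in it, so the ratio is a description. The largest macrophage-like cluster of NW was led by Lyve1 (2499 NW and 1755 ABX cells) and that of ABX by Vcam1 (2334 and 2160), and comparisons of the class between libraries carry this difference with them.

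Against NW, the early genes were lower in ABX over all cells and the heat shock genes differed little. Over all cells the early sum differed by -0.30 on the log2 scale (95% counting interval -0.30 to -0.29) and the heat shock sum by -0.11 (-0.11 to -0.10). The median over all 14505 genes with at least 50 UMIs was 0.07. Of the 24 early genes 23 were lower in ABX, with a median of -0.32, and 6 were at least 1.5-fold lower, a difference met by 2.54% of all genes. No member was at least 1.5-fold higher, a difference met by 13.3% of all genes. Among the 9554 genes with at least 1000 UMIs, as all members had, 132 were at least 1.5-fold lower and 368 higher. Of the 10 heat shock genes 8 were lower and 2 higher, none by 1.5-fold, with a median of -0.09. Scaling by the median of ratios shifts every gene by a further -0.14 on the log2 scale.

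The 6 genes past 1.5-fold were transcription factors and stress genes of the early list. Egr1 was at 785 CPM in NW and 426 in ABX, 1.84-fold lower. Nr4a1 was at 453 and 279 CPM, 1.63-fold lower, and Atf3 at 144 and 91.4, with a log2 ratio of -0.66. The other 3 had low levels, with Nr4a2 at 19.1 and 10.1 CPM, Egr2 at 21.3 and 11.6, and Gadd45b at 46.6 and 30.8. The abundant early genes differed less, with Fos at 2116 and 1706 CPM (-0.31), Jun at 2575 and 2242 (-0.20), Jund at 2078 and 1941 (-0.10), Zfp36 at 2111 and 1576 (-0.42) and Dusp1 at 1065 and 768 (-0.47). Cyr61 alone among the early genes was higher in ABX, at 40.9 and 45.3 CPM. Among heat shock genes Hspa8 had the lowest ratio, at 1876 and 1572 CPM (-0.26), and Hspa1b was at 2522 and 2567 CPM (0.03).

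**Figure D4:**
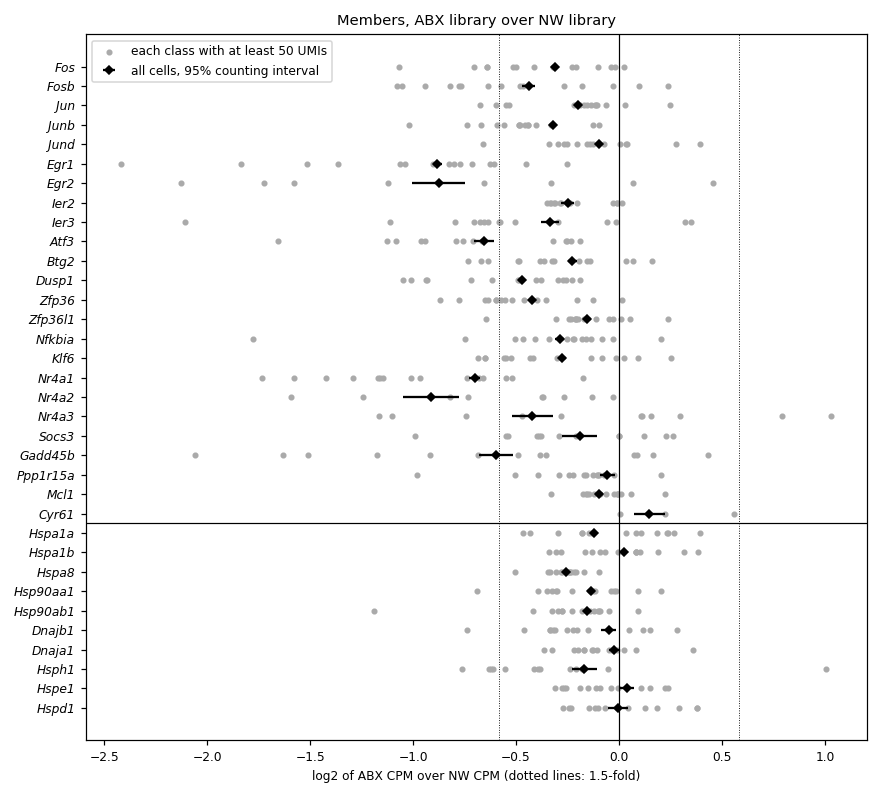
Log2 ratio of ABX CPM to NW CPM for each gene over all cells (diamonds, with 95% counting intervals) and in each class with at least 50 UMIs of the gene (grey points); dotted lines mark 1.5-fold and early genes are above the solid line. Egr1 and Nr4a1 have all 15 grey points left of 0, while those of Hspa1a lie on both sides.

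The difference ran through the classes. The early sum was lower in ABX in 15 of 15 classes, with every counting interval below 0, from -0.54 in neutrophil-like to -0.06 in NK-like cells and a median of -0.36. The heat shock sum was lower in 14 of 15 classes, 13 of them with an interval below 0, with a median of -0.12. Its lowest value was -0.40 in Treg-like cells, and ILC2-like cells were at 0.02 with an interval that includes 0. As medians over genes, the heat shock ratio was below the early one in macrophage-like (-0.22 and -0.08), NK-like (-0.18 and -0.03) and Treg-like cells (-0.39 and -0.37). In all other classes the heat shock median was above the early one. All classes share the same 2 libraries, so they are not independent evidence, and the intervals leave out the spread between cells. Egr1 and Nr4a1 were lower in 15 of 15 classes, with 14 and 15 intervals below 0, and so were Junb, Dusp1 and Hspa8, with 14 intervals each. Hspa1a was lower in 7 classes and higher in 8. Macrophage-like cells, the largest class, had an early ratio of -0.10. Its clusters had lower ratios, -0.25 in the Vcam1 cluster, -0.17 in the Lyve1 cluster, -0.12 in the cluster high in early genes and -0.35 and -0.56 in 2 small ones, and the cluster high in early genes held 627 of 5802 cells in NW and 817 of 5026 in ABX.

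In ILC2-like cells the ratios differed widely among early genes. There 11 of 22 early genes were at least 1.5-fold lower in ABX with an interval that excludes 1, against 3.82% of all genes in these cells. Gadd45b was at 186 and 60.0 CPM (-1.63), Nr4a1 at 1922 and 855 (-1.17), Zfp36 at 4109 and 2397 (-0.78) and Nfkbia at 1712 and 1019 (-0.75). Fos was at 2503 and 2473 CPM, with a log2 ratio of -0.02 and an interval of -0.06 to 0.02. Fos thus differed by less than its counting error, while Junb, at 2836 and 2027 CPM, and Fosb, at 566 and 410, were lower short of 1.5-fold. The HSP70 pair was higher there in ABX, Hspa1a by a log2 ratio of 0.39 and Hspa1b by 0.38, and Hsph1 was the 1 heat shock gene of 10 past 1.5-fold lower, at 116 and 75.7 CPM.

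Treg-like cells had the lowest heat shock ratio of the 15 classes, although neutrophil-like cells were lower, at -0.65, when the members were kept in the clustering. Of their early genes 8 of 21 were past 1.5-fold lower and of their heat shock genes 3 of 10, against 4.63% of all genes. Dusp1 was at 1331 and 644 CPM (-1.05), Nr4a1 at 898 and 405 (-1.15) and Gadd45b at 236 and 82.7 (-1.51), while Fos was at 1090 and 1109. The 3 heat shock genes were Hsp90aa1 (1326 and 822 CPM), Dnajb1 (552 and 331) and Hsph1 (156 and 101). These are the stress-inducible HSP90 and 2 HSP70 partners. The class held 423 NW and 176 ABX cells.

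Neutrophil-like cells had the most early genes past 1.5-fold lower, 12 of 20, against 9.15% of the 896 genes with enough UMIs in these few cells. Ier3 was at 656 and 152 CPM (-2.11), Egr1 at 1661 and 466 (-1.83) and Nfkbia at 1352 and 394 (-1.78), while Jund was at 2626 and 3449 (0.39). Of 6 heat shock genes Hsp90ab1 alone was past 1.5-fold lower, at 1043 and 457 CPM. So the class with the highest early level also had the largest share of early genes lower in ABX. In macrophage-like cells 2 of 24 early genes, Egr1 (1274 and 836 CPM) and Egr2 (26.3 and 16.7), were past 1.5-fold lower, against 1.61% of all genes. Hspa1a and Hspa1b were higher there by log2 ratios of 0.11 and 0.19, and Hsp90ab1 was lower by -0.33. All the other heat shock genes were lower there too, with counting intervals below 0. The median over heat shock genes was -0.22, against -0.08 over early genes and 0.03 over all genes. Nr4a3 was higher, at 5.50 and 9.51 CPM.

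In the other 11 classes, the early genes past 1.5-fold lower were 8 of 21 in B cell-like cells (5.48% of all genes there), 8 of 22 in NKT-like (2.40%), 7 of 23 in cDC1-like (1.79%), 6 of 24 in activated CD4+ T-like (3.90%), 6 of 23 in monocyte-like (6.41%) and 3 of 24 in endothelial-like cells (5.15%). They were 7 of 20 in mature DC-like (4.49%), 6 of 23 in cDC2-like (2.49%), 6 of 20 in plasma cell-like (3.37%), 4 of 19 in gdT-like (2.57%) and 2 of 20 in NK-like cells (2.22%). Of the heat shock genes, Hsph1 alone was past it in these 11 classes, in cDC1-like cells at 59.3 and 35.0 CPM and in cDC2-like cells at 57.4 and 37.1, and in mature DC-like cells it was higher in ABX, at 36.8 and 73.7 CPM. In endothelial-like cells the 3 were Egr1 (864 and 496 CPM), Atf3 (180 and 92.5) and Zfp36 (2065 and 1365), and Nr4a3 was higher, at 16.5 and 33.8 CPM. Egr1 was past 1.5-fold lower in 13 of the 15 classes, all but Treg-like cells, where it was at 213 and 179 CPM, and cDC2-like cells.

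The early difference was present in each range of the mitochondrial share. Over all cells the early sum was 16670 CPM in NW and 13541 in ABX where mitochondrial UMIs were under 5%, 17005 and 13516 where they were 5 to 10%, and 18521 and 15441 where they were 10 to 25%. The log2 ratios in these bins were -0.30, -0.33 and -0.26, and the heat shock ones -0.18, -0.10 and -0.07. The ABX library was therefore lower in early genes in each bin, and both lists were highest in the bin with the most mitochondrial UMIs. Macrophage-like cells split by UMIs per cell had early ratios of -0.14 in the shallowest, -0.26 in the middle and -0.08 in the deepest group. Barcodes left out by the filters were 5188 in NW and 5061 in ABX, almost all over 25% mitochondrial. Their early sums were 6249 and 5104 CPM and their heat shock sums 4716 and 4157 CPM, below the kept cells. Mitochondrial UMIs count in the total that CPM is scaled by, so a high mitochondrial share by itself lowers these sums.

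Cells of 1 class varied widely in early genes. With every cell thinned to 1000 UMIs, the early genes held a median of 18 UMIs per macrophage-like cell in NW and 15 in ABX, with 10th percentiles of 6 and 5 and 90th percentiles of 42 and 41. The heat shock genes held 10 and 10. In ILC2-like cells the early median was 24.5 in NW and 16 in ABX, and in NK-like cells 5 in both. The thinning left out 249 NW and 376 ABX cells under 1000 UMIs. In 14 of 15 classes the cells highest in early genes also had more heat shock UMIs than those lowest in early genes, in both libraries. Macrophage-like cells in the lowest quintile for early genes held a mean of 7.11 heat shock UMIs in NW and 6.13 in ABX, and those in the highest quintile 14.4 and 15.8. In endothelial-like cells the means were 5.52 and 4.96 in the lowest and 13.1 and 14.8 in the highest quintile. Neutrophil-like cells went the other way, from 3.38 and 3.50 to 2 and 1.60, on 10 to 13 cells per quintile. Cells of a class share a library, so these are descriptions.

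**Figure D5:**
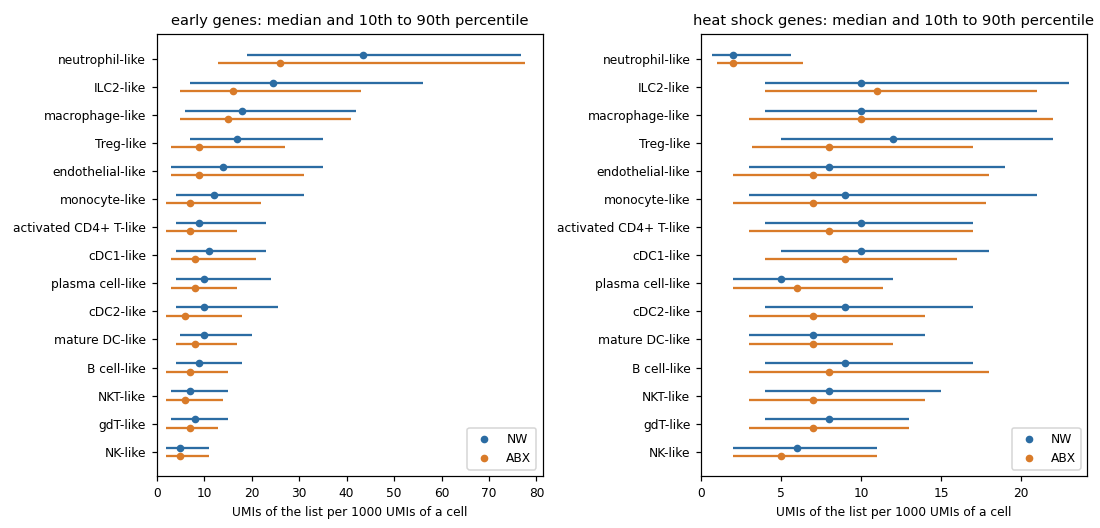
Median (points) and 10th to 90th percentile (lines) of UMIs of the early list (left) and heat shock list (right) per cell, each cell thinned to 1000 UMIs, in 15 classes of NW (blue) and ABX (orange). The early lines are longest in neutrophil-like and ILC2-like cells, and NK-like cells have a median of 5 in both libraries.

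Other genes of the same pathways lay closer to 0 in their medians than the early members (-0.32). Of 41 other early response genes with at least 50 UMIs, 2 were at least 1.5-fold lower in ABX, the phosphatase gene Dusp5 (91.5 and 57.8 CPM) and Pmaip1, a BCL2 family death gene (68.9 and 45.2), none was higher, and the median was -0.08. Myc, at 42.8 and 54.2 CPM, and Irf1, at 82.6 and 104.2, were on the other side of 0. Of 43 other chaperones none was lower and 4 were higher, with a median of -0.02. Hspb8 (1.32 and 4.06 CPM), Serpinh1 (4.08 and 11.2) and Cryab (1.72 and 3.74) were the 3 with the highest ratios. Fibroblast-like cells, too few in NW for the class comparisons, were 9 in NW and 94 in ABX. Ratios over all cells carry such differences in cell mix, and their part here was not tested. Of 20 NF-κB and inflammatory targets 2 chemokine genes were lower, Ccl7 (27.1 and 15.4 CPM) and Ccl2 (62.1 and 38.0), none was higher, and the median was -0.15. None of 22 endoplasmic reticulum stress genes and none of 24 upstream kinases and regulators passed 1.5-fold, with medians of -0.11 and 0.01. These lists were drawn up by function with earlier results of these data known.

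The genes most like each sum were sought among 9554 genes with at least 1000 UMIs, as Pearson's r of log2 levels over the 30 sums of 15 classes in 2 libraries. H3f3b, a histone H3.3 gene, was most like the early sum (0.89), followed by Dmxl2 (0.81), Gm26532 (0.80), Zfand5 (0.79) and Snx13 (0.78). The heat shock sum was closest to Bivm, Slc36a4 and Ndufaf6 (0.83 each). Among members Fos and Fosb had 0.94, Junb and Dusp1 0.90, Hsp90ab1 and Hspe1 0.89, Hspa1a and Hspa1b 0.80, and Hspd1 and Hspe1, which share an upstream region, 0.64. The 30 sums come from 2 libraries and differ in depth, so these values rank likeness and nothing more.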

How the data were processed

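VAT CD45+ cells of 1 NW and 1 ABX library were profiled with the BD Rhapsody whole transcriptome assay and AbSeq antibodies. The authors ran the manufacturer's pipeline on GRCm38 (mm10) and deposited whole-number UMI counts per gene and antibody for each cell barcode, without normalization. Their processing notes name Seurat 3.0.1 and R 3.6.0. A gene listed in 1 library only was taken as 0 in the other.

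Cells with under 500 UMIs, under 200 genes or over 25% mitochondrial UMIs were removed, following the study's methods. Seurat 5.3.0 (R 4.3.3) clustered both libraries on 2000 variable genes and the 8 antibodies named in the methods (30 principal components, resolution 0.6), with no integration. The variable genes left out the 34 members and the lists of other early response genes and other chaperones. The alternative clustered with the members kept these lists too. Of the 10 antibody columns, 2 were not used. Clusters were named from marker lists (at least 3 markers, 1.5-fold, UMIs in 10% of cells), and 420 NW and 437 ABX cells stayed unnamed. Doublets were kept. Scrublet (scanpy 1.11.5) marked 344 NW cells (2.76%) at a score of 0.223.

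UMIs were summed per library and class and divided by all gene UMIs of those cells (CPM). Ratios are log2 of ABX over NW CPM, with exact 95% intervals of Poisson rates (Python 3.11.15, scipy 1.17.1) that cover counting error only. They leave out the spread between cells and between mice. There was no test, since each condition has 1 library. Genes needed 50 UMIs over both libraries, and classes 50 cells in each. The scripts were checked on simulated data. Members and lists were chosen with earlier results of these data known. Genes named are the members, with the 3 highest and 3 lowest of each other list. Alternatives covered scaling, filters, weighting, clustering and doublets.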

Additional observations from a re-analysis of the deposited data

Results flagged for a closer look

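Nr4a3 differed in direction between classes, with log2 ratios of ABX over NW of 1.03 in endothelial-like and 0.79 in macrophage-like cells and of -1.17 in ILC2-like and -1.102 in cDC1-like cells, each with a counting interval on its own side of 0. Hsph1 did so too, with 1.00 in mature DC-like cells against -0.61 in ILC2-like, -0.62 in Treg-like, -0.76 in cDC1-like and -0.63 in cDC2-like cells. With 1 library per condition, the difference between classes was not tested in either gene.

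Barcodes left out by the filters although their mitochondrial share was at most 25% were 14 in NW and 44 in ABX. Their early genes summed to 12845 CPM in ABX and 6509 CPM in NW, and their heat shock genes to 8996 and 3857 CPM. These sums rest on 54 and 32 UMIs in NW.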

How the results depend on the processing

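No paired analysis was possible because each condition has 1 library. The early sum over all cells (log2 -0.30) stayed below 0 in every alternative. It was -0.44 with median-of-ratios size factors, -0.29 with totals that leave out members and mitochondrial genes and -0.32 at 10% mitochondrial UMIs. It was -0.29 with thinned cells and -0.29 without predicted doublets. With each class weighted by its mean share of cells over both libraries it was -0.23. It was -0.32 as a median of genes and -0.32 without the most abundant gene. The heat shock sum (-0.11) was -0.24, -0.10, -0.11 with all barcodes, -0.13 at 10% mitochondrial UMIs and -0.12 as a mean over cells. It was -0.069 with classes weighted by that mean share, -0.086 as a median and -0.15 without the most abundant gene. The macrophage-like over lymphoid ratio of early genes in NW (0.42) was 0.31 clustered with the members, 0.14 on mRNA alone, 0.36 at resolution 1, 0.37 at 10% mitochondrial UMIs, 0.28 as a median, 0.45 without predicted doublets and 0.35 without the most abundant gene, and in ABX (0.77) 0.64, 0.43, 0.69, 0.67, 0.46, 0.81 and 0.73. The same ratio of heat shock genes in NW (0.07) was 0.023 clustered with the members, 0.0105 on mRNA alone, 0.027 at 10% mitochondrial UMIs, -0.50 as a median and -0.026 without the most abundant gene, the last 2 on the other side of 0. In ABX (0.16) it was 0.10, 0.13, 0.064, -0.72 and 0.025, with the median on the other side of 0. Abundant Hspa1a and Hspa1b, the 2 genes higher in macrophage-like cells, make the sum and the median differ. The count of members past 1.5-fold lower ran from 5 to 7, and 28 of 34 members kept their sign in 9 alternatives, the exceptions being Nr4a3, Cyr61, Hspa1a, Hspa1b, Hspe1 and Hspd1. Clustered on mRNA alone, early genes were lower in 13 of 14 classes, with endothelial-like cells at 0.02. With at least 200 UMIs, 8.22% of all genes were past 1.5-fold higher. Scrublet's automatic threshold marked 1 ABX cell, so the NW threshold was used in both libraries (344 and 324 cells), a choice made after seeing the data. Small classes and genes under 50 UMIs limit the depth.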
